A study of Homo sapiens with 32 samples.

Results

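Glycolysis and hypoxia response genes were followed through arrays of the human lung cancer lines A549 and H460a, each given vehicle or the gamma-secretase inhibitor RO4929097 for 6 or 24 h. The list holds 40 genes, fixed by symbol: the alpha subunits of the hypoxia-inducible factors (HIF) with their prolyl hydroxylases, the enzymes of glycolysis, glucose transporters and regulators of glycolytic flux, and other known HIF targets. It was chosen with earlier results of these data known, so its counts beside all genes are descriptions. A probe set counted as a gene's own where the platform annotation gave it that symbol alone, and of several such probe sets the brightest on average across the 32 arrays stood for the gene. By this rule 38 of the 40 genes were measured, of 19775 genes in all, and SLC16A3 and CA9 were not analysed here. The measured genes were 4 HIF alpha subunits and prolyl hydroxylases, 15 glycolytic enzymes, 5 transporters and flux regulators and 14 other HIF targets.

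HIF is a transcription factor made of an oxygen-regulated alpha subunit, HIF1A or EPAS1 (also called HIF-2 alpha), and the partner ARNT. With oxygen present, prolyl hydroxylases such as EGLN1 and EGLN3 mark the alpha subunit for degradation, so that HIF activity is set largely at the protein level, which arrays do not read. When oxygen falls, HIF binds the core letters ACGTG or GCGTG near its targets and raises the genes of glucose uptake, glycolysis, mitochondrial clearance, collagen maturation and blood vessel growth. Tumour lines often run glycolysis at a high rate even in air.

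A549 is a lung adenocarcinoma line and H460a a line from large cell lung carcinoma, which the series text calls H460. The labels give 8 groups of 4 replicates, 1 for each line, treatment and time: vehicle for 6 h, vehicle for 24 h, 2 µM RO4929097 for 6 h and 2 µM RO4929097 for 24 h. RO4929097 blocks gamma-secretase, the protease that releases the active part of Notch receptors. All groups were plated at 35% confluency and rested overnight before dosing, so the groups lysed later had also been in culture longer, and the labels give no oxygen setting, medium change or vehicle composition. Each line is a single cell line, and since no label ties a replicate to a culture of its own, each p-value rests on array-to-array spread that could be technical alone.

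Promoter letters are shown first for 5 members that rose with time in H460a and whose entry held the motif, together with GAPDH, an enzyme that did not pass that test, with 1 match a gene. The 250 bases upstream of each RefSeq start site in GRCh38.p14 were searched on both strands for ACGTG and GCGTG, and CACGTG counts on both strands at overlapping places. ACGTG stood upstream of 19 of the 33 measured members that have an entry (57.6%), against 21.7% of 27305 genes, and 28 of the 33 (84.8%) held either motif, against 47.4%. By start site ACGTG stood in 41.5% of 53 for members and 18.5% of 35116 in all. The members without an entry are SLC2A3, VEGFA, NDRG1, BNIP3L and SPAG4. Capitals mark ACGTG or its reverse complement CACGT, and both together where they overlap, in bases that end upstream of the start and run 5′ to 3′ on the gene's strand.
ALDOC, chr17:28576896-28576953, minus strand: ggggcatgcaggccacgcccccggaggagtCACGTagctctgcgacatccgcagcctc
ENO2, chr12:6914432-6914496, plus strand: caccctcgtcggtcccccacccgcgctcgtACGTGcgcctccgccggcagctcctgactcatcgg
PPFIA4, chr1:203026343-203026407, plus strand: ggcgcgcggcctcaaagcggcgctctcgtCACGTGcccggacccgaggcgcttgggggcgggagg
EGLN1, chr1:231422288-231422330, minus strand: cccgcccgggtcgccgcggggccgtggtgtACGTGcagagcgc
HK2, chr2:74834049-74834113, plus strand: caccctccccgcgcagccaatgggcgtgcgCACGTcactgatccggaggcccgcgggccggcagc
GAPDH, chr12:6535154-6535218, plus strand: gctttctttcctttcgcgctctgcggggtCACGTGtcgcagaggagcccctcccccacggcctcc
CACGTG thus stands both in PPFIA4, which rose, and in GAPDH. The 24 h H460a arrays of GAPDH stood at 15.28, the top of the normalized scale, where a further rise could not be read. A match is a description, not a site or a cause. Since the list names known HIF targets and HIF binds these letters, the higher shares among members are no test. The 27305 genes are all those with an entry, measured here or not.

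The array set had uneven parts that touch these genes. The deposited mean intensity was 468 to 496 in the 4 vehicle A549 arrays at 6 h, 496 and 531 in replicates 1 and 2 of RO4929097 A549 at 6 h, and 570 to 613 in the other 26. In the brightest 10% of genes, which include 22 of the 38 members, the deposited values put the median gene 0.35 higher at 24 h than at 6 h in vehicle A549 (log2 scale). The arrays were therefore quantile normalized, and for members called in a comparison with A549 at 6 h, the values as deposited are given where the call was lost or the direction turned. Replicate 3 of vehicle H460a at 6 h also stood apart: its actin probe sets differed by 2.19 between the 3′ and 5′ ends, against 0.14 to 0.42 on the other 31 arrays. The lines' labels were checked with 6 epithelial markers: KRT8 (group means 12.75 to 13.82) and KRT18 (13.61 to 14.78) were high in both lines, KRT7 was high in A549 (13.73 to 13.99) and KRT19 in H460a (13.35 to 13.66). EPCAM lay at or below 5.93 in both lines and CDH1 at or below 4.79 in H460a. Leukocyte markers were mixed: PTPRC lay at or below 5.43 throughout, but CD14 read 8.10 to 9.15 and CD79A 8.16 to 8.70. Levels below are log2 intensities after quantile normalization, and differences are log2 differences with their standard error from limma (n = 4 arrays a group). Adjusted p under 0.05 over all 19775 genes counts as past the threshold.

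In H460a most of these genes rose with time in culture. Between 6 and 24 h in vehicle, 30 of the 38 members rose and 1 fell (81.6%), where 32.1% of all genes lay past the threshold (16.4% higher and 15.7% lower). The median difference was 0.585 over the members and 0.010 over all genes. Among glycolytic enzymes 11 of 15 rose, with a median of 0.265 over all 15. Of the other HIF targets 13 of 14 rose and CA12 fell, with a median of 1.091. SPAG4 differed by 2.17, a 4.5-fold difference. The 4 enzymes that missed the threshold were LDHA, GAPDH, PGAM1 and ENO1, all read in the brightest 1% of genes. As deposited 28 members rose and 1 fell, beside 2980 and 3024 of all genes, with PKM and ALDOA no longer past the threshold.

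**Figure D1:**
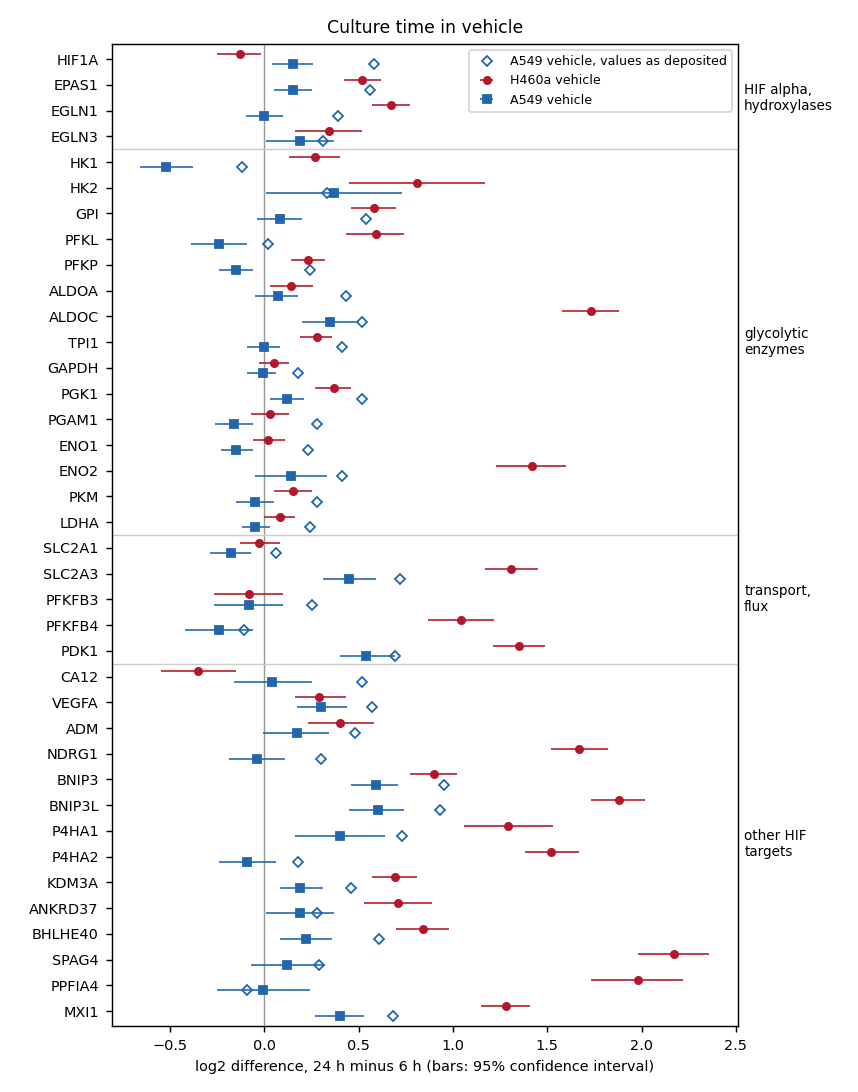
Log2 difference of each of the 38 members between 24 and 6 h in vehicle, by role, for H460a (circles) and A549 (squares), with 95% confidence intervals, and for A549 with the values as deposited (open diamonds). SPAG4, PPFIA4 and BNIP3L lie farthest to the right in H460a, at 2.17, 1.98 and 1.88, and the A549 squares stay between -0.52 and 0.60.

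Of the oxygen sensors and HIF subunits, EGLN1, EPAS1 and EGLN3 rose in H460a. EGLN1, the main prolyl hydroxylase acting on HIF1A, read 11.61, 11.56, 11.52 and 11.55 at 6 h and 12.23, 12.25, 12.23 and 12.23 at 24 h. The later arrays all lay above the earlier ones, and the difference was 0.67 ± 0.0489 (SE), adjusted p = 1.68e-12. EPAS1 read 10.04, 10.12, 10.21 and 10.03 at 6 h and 10.61, 10.67, 10.63 and 10.58 at 24 h, again without overlap, a difference of 0.52 ± 0.0495 (SE), adjusted p = 4.82e-10. EGLN3, a hydroxylase gene that is itself a HIF target, read 8.60, 8.48, 8.57 and 8.38 at 6 h and 8.77, 8.74, 9.09 and 8.79 at 24 h. Its groups did not overlap either, with replicate 3 the highest of the later arrays, and the difference was 0.34 ± 0.088 (SE), adjusted p = 0.00239. HIF1A read 12.95, 12.98, 13.09 and 12.99 at 6 h and 12.99, 12.93, 12.82 and 12.73 at 24 h in H460a. Its groups overlapped, and the difference of -0.13 ± 0.0548 (SE), adjusted p = 0.0616, did not pass the threshold.

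Among the glycolytic enzymes, the isoforms ALDOC and ENO2 rose the most. ALDOC, the aldolase isoform best known from brain, read 9.32, 9.13, 9.26 and 9.41 at 6 h and 10.90, 11.00, 11.07 and 11.08 at 24 h. The 4 later arrays were all higher, by 1.73 ± 0.0738 (SE), adjusted p = 1.9e-17, a 3.33-fold difference. ENO2, the enolase isoform typical of neurons and a known hypoxia target, read 8.81, 8.63, 9.21 and 8.78 at 6 h and 10.16, 10.33, 10.28 and 10.32 at 24 h. These groups did not overlap, and the difference was 1.42 ± 0.0909 (SE), adjusted p = 1.19e-13. Of their sister isoforms on the same arrays, ALDOA differed by 0.14 ± 0.0558 (SE), adjusted p = 0.046, and ENO1 by 0.02 ± 0.0416 (SE), adjusted p = 0.734. Those readings come from probe sets at mean levels of 14.57 and 14.46, in the brightest 1% of genes, where 9 of the 15 enzymes were read. The other probe sets of ALDOA gave 0.16 and 0.69 and those of ENO1 0.38, 0.06 and -0.18, in order of brightness, and the ALDOA value of 0.69 was past the threshold over all probe sets (adjusted p = 1.46e-05). HK2, the inducible hexokinase that starts glycolysis, read 10.19, 10.11, 8.83 and 9.80 at 6 h and 10.42, 10.52, 10.69 and 10.53 at 24 h. Replicate 3 was the lowest of its 6 h arrays, the difference was 0.81 ± 0.177 (SE), adjusted p = 0.00044, and without that replicate it was 0.51 (adjusted p = 0.00175). A less bright probe set of HK2 fell by 0.48 (adjusted p = 0.000603). Its mean level was 6.66, and that of the remaining HK2 probe set was 5.91. Both lay under 7.45, the level used here as background, so only the probe set used read HK2 above it.

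Another 8 enzymes rose by less on the probe sets used: PFKL by 0.59 and GPI by 0.58, which act at the top of the pathway, then PGK1 by 0.37, TPI1 by 0.28, HK1 by 0.27, PFKP by 0.23, PKM by 0.15 and ALDOA by 0.14. The other 5 probe sets of PGK1 gave 0.63, 0.78, 0.77, 0.06 and 0.77, in order of brightness, so the size of its rise depended on the probe set. PKM and PFKP each had another probe set of opposite sign, and the mean of PKM's probe sets gave -0.11 (adjusted p = 0.224). For PFKP that probe set lay at a mean level of 6.92, under the level of 7.45 used here as background. PKM missed the threshold without replicate 3 of vehicle H460a at 6 h, or replicate 4 of vehicle H460a at 24 h (adjusted p from 0.0699 to 0.0701), and ALDOA without replicate 2, 3 or 4 of vehicle H460a at 6 h, or replicate 1, 2 or 3 of vehicle H460a at 24 h (adjusted p from 0.0562 to 0.251). Of the enzymes not past the threshold, the differences were those of LDHA (0.08, 95% interval 0.00 to 0.16), GAPDH (0.05, -0.03 to 0.13), PGAM1 (0.03, -0.07 to 0.13) and ENO1 (0.02, -0.06 to 0.11). LDHA and PGAM1 had no dimmer probe set to compare, at mean levels of 14.79 and 13.99. The part that brightness has in these small differences was not tested. The 4 later GAPDH arrays stood at 15.28, the highest quantile-normalized value of any gene on any array. As deposited it differed by 0.08.

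Of the 5 transporters and flux regulators, 3 rose in H460a. PDK1, a kinase that inhibits pyruvate dehydrogenase, read 10.21, 10.35, 10.33 and 10.23 at 6 h and 11.72, 11.68, 11.52 and 11.60 at 24 h. Every later array was higher, by 1.35 ± 0.0704 (SE), adjusted p = 1.23e-15. SLC2A3, the glucose transporter GLUT3, read 10.76, 10.71, 10.40 and 10.72 at 6 h and 12.05, 12.03, 11.87 and 11.88 at 24 h. Its groups did not overlap, replicate 3 was the lowest at 6 h, and the difference was 1.31 ± 0.0676 (SE), adjusted p = 9.82e-16, or 1.23 without that replicate. PFKFB4, which makes and breaks down the activator of phosphofructokinase, read 8.91, 8.82, 8.68 and 8.89 at 6 h and 9.83, 9.84, 9.96 and 9.85 at 24 h. It too rose without overlap, by 1.04 ± 0.0872 (SE), adjusted p = 3.46e-11. In contrast SLC2A1, the transporter GLUT1, differed by -0.03 ± 0.0529 (SE), adjusted p = 0.787, and PFKFB3 by -0.08 ± 0.0903 (SE), adjusted p = 0.573.

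The widest rises belonged to other HIF targets. SPAG4, a protein of the nuclear envelope known as a hypoxia-induced gene in tumours, read 8.49, 7.97, 8.38 and 8.54 at 6 h and 10.37, 10.65, 10.51 and 10.52 at 24 h. The groups lay far apart, with a difference of 2.17 ± 0.0939 (SE), adjusted p = 2.13e-17. PPFIA4, a liprin scaffold protein found among hypoxia signatures, read 6.56, 6.30, 6.21 and 6.52 at 6 h and 8.32, 8.54, 8.56 and 8.08 at 24 h. Its 6 h mean lay under 7.45, the level set here from genes of cell types that these lines do not represent, so the measured difference of 1.98 ± 0.12 (SE), adjusted p = 3.17e-14, is a lower limit. BNIP3L, a receptor for the clearance of mitochondria, read 10.04, 9.83, 10.11 and 9.87 at 6 h and 11.89, 11.92, 11.82 and 11.73 at 24 h. It rose without overlap, by 1.88 ± 0.0709 (SE), adjusted p = 1.37e-18. NDRG1, a stress gene widely used as a hypoxia marker, rose by 1.67, and the collagen prolyl hydroxylase subunits P4HA2 and P4HA1 by 1.52 and 1.29.

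Another 7 HIF targets rose by smaller amounts: MXI1, a MYC antagonist, by 1.28, BNIP3, another mitophagy receptor, by 0.90, the transcription factor BHLHE40 by 0.84, ANKRD37 by 0.71, the histone demethylase KDM3A by 0.69, the vasodilator peptide gene ADM by 0.40 and the vessel growth factor VEGFA by 0.29. P4HA1 had a 6 h replicate 3 far below the rest, at 10.67 against 11.59 for the next, and its difference without that array was 1.06 (adjusted p = 1.18e-15). CA12, a membrane carbonic anhydrase that regulates pH, went the other way: it read 11.14, 11.12, 11.82 and 11.20 at 6 h and 11.00, 11.06, 10.88 and 10.94 at 24 h. Its groups did not overlap, but the same replicate 3 was the highest 6 h array, and the difference moved from -0.35 ± 0.0995 (SE), adjusted p = 0.00588, to -0.18 without it (adjusted p = 0.0451). Besides HK2, PFKP and PKM, the genes past the threshold with another probe set of opposite sign were CA12, VEGFA, P4HA1 and KDM3A. Except for VEGFA and PKM these opposite probe sets lay under the background level. For CA12, P4HA1 and KDM3A their mean levels were 7.22, 3.79 and 4.35, with differences of 0.19, -0.08 and -0.06, none past the threshold. With the mean of all probe sets HK2, CA12 and VEGFA lost the call.

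The RO4929097 arrays of H460a give the same time comparison on other arrays. There 27 members rose and 0 fell, and all 27 were among the 30 that rose in vehicle. For time comparisons on RO4929097 arrays, here and below, the share of all genes past the threshold is not given, so the member counts stand without it. SPAG4 differed by 1.95, ALDOC by 1.81, BNIP3L by 1.73 and PDK1 by 1.23, and PPFIA4, again under the background level at 6 h, by at least 1.52. The members that rose in vehicle and missed the threshold here were EGLN3 (0.20), HK2 (0.29) and ALDOA (0.11), and CA12 differed by -0.08 (adjusted p = 0.588). Because whole lysates were measured, a change in every cell cannot be told apart from a change in the share of cells that express a gene.

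**Figure D2:**
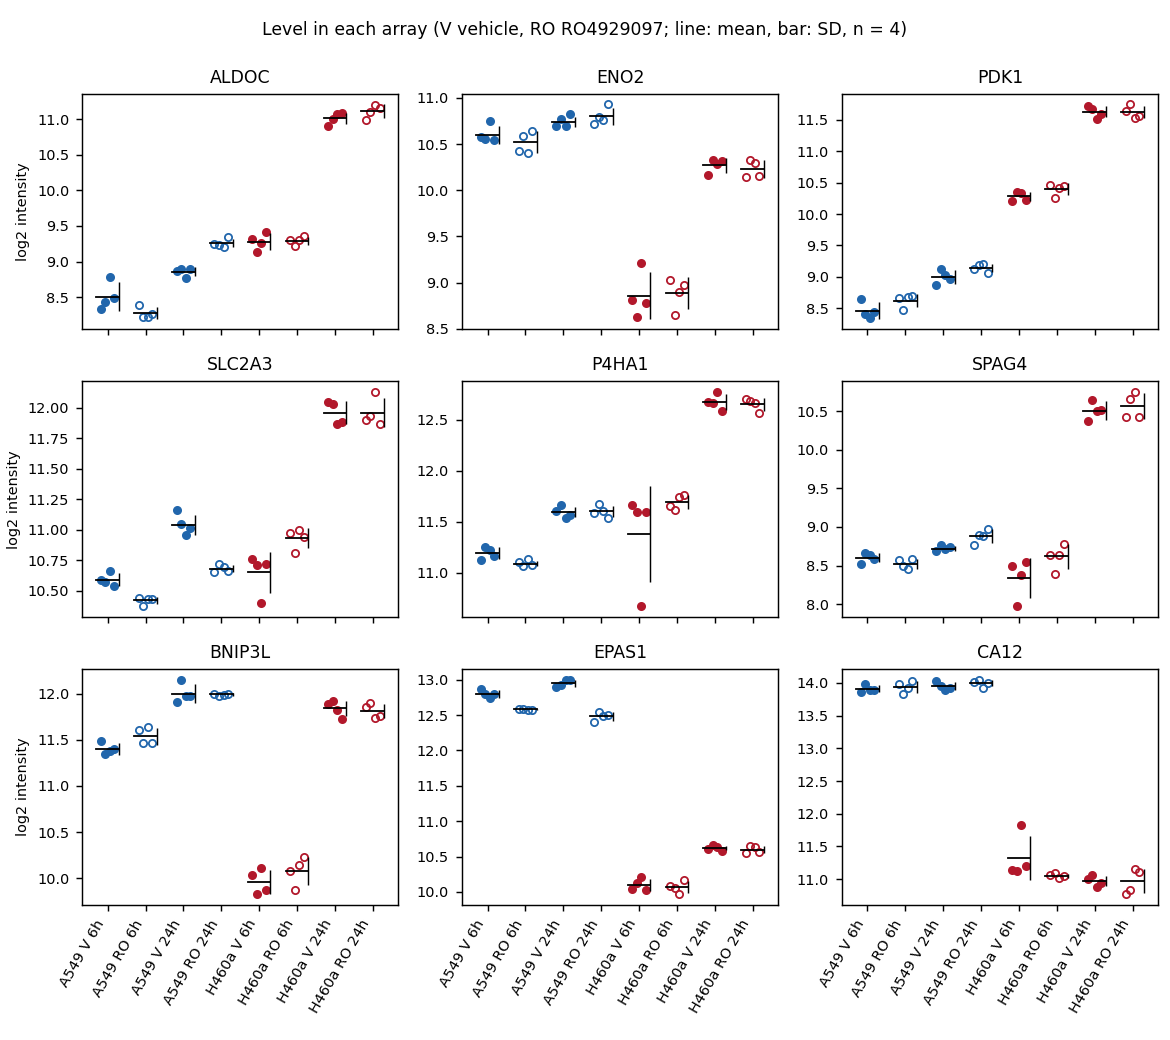
Log2 intensity of 9 members on each of the 32 arrays, by group (blue A549, red H460a, filled vehicle, open RO4929097), with the mean and SD of each group. ALDOC, PDK1, SLC2A3, SPAG4 and BNIP3L step up from 6 to 24 h in H460a with and without the inhibitor, and the low P4HA1 point and the high CA12 point at 6 h are both replicate 3 of vehicle H460a.

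In A549 fewer of these genes rose with time after quantile normalization. Between 6 and 24 h in vehicle 13 members rose and 7 fell (52.6%), where 38.7% of all genes lay past the threshold (16.6% higher and 22.1% lower). The members' median difference was 0.101, against -0.049 for all genes. These numbers depended on the scaling: with the values as deposited 31 members rose and 0 fell, with a median of 0.4, and with each array centred on its median 32 rose and 0 fell. Of all 19775 genes, 5766 rose and 2965 fell as deposited, and 6405 rose and 1902 fell after centring. As deposited, the count of members that rose was thus not lower in A549 than in H460a, where it was 28. All 13 that rose after quantile normalization also rose as deposited, whereas none of the 7 that fell did so, and PFKP, PGAM1 and ENO1 changed to a rise past the threshold.

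The 13 A549 genes that rose under both scalings included 7 other HIF targets and both HIF alpha subunits. HIF1A read 14.16, 14.03, 14.08 and 14.15 at 6 h and 14.25, 14.25, 14.23 and 14.29 at 24 h. These groups did not overlap, and the difference was 0.15 ± 0.0548 (SE), adjusted p = 0.0297. EPAS1 read 12.87, 12.80, 12.74 and 12.80 at 6 h and 12.90, 12.92, 13.00 and 12.99 at 24 h, likewise apart, a difference of 0.15 ± 0.0495 (SE), adjusted p = 0.0183. HIF1A lost the call without replicate 2 or 3 of vehicle A549 at 6 h, or replicate 2 or 4 of vehicle A549 at 24 h (adjusted p from 0.0513 to 0.1), and EPAS1 without replicate 3 of vehicle A549 at 6 h, or replicate 3 or 4 of vehicle A549 at 24 h (adjusted p from 0.0528 to 0.0698). In the RO4929097 arrays HIF1A differed by 0.02 and EPAS1 by -0.09 between the times, neither past the threshold, and the mean over all EPAS1 probe sets gave -0.06 in vehicle. BNIP3L read 11.49, 11.35, 11.38 and 11.40 at 6 h and 11.91, 12.15, 11.97 and 11.97 at 24 h. Its later arrays were all higher, by 0.60 ± 0.0709 (SE), adjusted p = 1.99e-07. BNIP3 read 12.07, 11.93, 11.91 and 11.83 at 6 h and 12.55, 12.43, 12.54 and 12.59 at 24 h, with no overlap and a difference of 0.59 ± 0.0608 (SE), adjusted p = 1.85e-08. P4HA1 read 11.12, 11.25, 11.22 and 11.16 at 6 h and 11.60, 11.66, 11.54 and 11.57 at 24 h, which also kept apart, with a difference of 0.40 ± 0.117 (SE), adjusted p = 0.00689. MXI1 (0.40), VEGFA (0.30), BHLHE40 (0.22) and KDM3A (0.19) rose as well, and with the mean of all probe sets KDM3A, BHLHE40, PDK1 and PGK1 lost the call, as did SLC2A1 and PFKFB4 of the 7 lower genes. Another probe set had the opposite sign for EPAS1, VEGFA, P4HA1, PDK1, PGK1 and SLC2A1, and VEGFA's mean over all its probe sets differed by -0.09. For P4HA1 and SLC2A1 that probe set lay under the background level, at mean levels of 3.79 and 5.87.

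Within glycolysis, A549 showed a rise of PDK1, SLC2A3, ALDOC and PGK1. PDK1 read 8.64, 8.41, 8.34 and 8.43 at 6 h and 8.87, 9.13, 9.03 and 8.96 at 24 h. The groups did not overlap, and the difference of 0.54 ± 0.0704 (SE), adjusted p = 7.64e-07, compares with 1.35 in H460a. SLC2A3 read 10.59, 10.57, 10.66 and 10.54 at 6 h and 11.16, 11.05, 10.96 and 11.01 at 24 h, also apart, with a difference of 0.45 ± 0.0676 (SE), adjusted p = 6.16e-06. Its 2 other probe sets rose by 1.10 and 1.04 in A549 and by 1.52 and 1.46 in H460a, and the mean of its probe sets by 0.86 and 1.43, so the size of the A549 rise depended on the probe set. ALDOC read 8.33, 8.43, 8.79 and 8.49 at 6 h and 8.87, 8.89, 8.77 and 8.9 at 24 h. Replicate 3 at 6 h overlapped the later arrays, and the difference was 0.35 ± 0.0738 (SE), adjusted p = 0.000393. PGK1, the first enzyme of the pathway to yield ATP, read 14.22, 14.15, 14.24 and 14.19 at 6 h and 14.29, 14.33, 14.33 and 14.34 at 24 h, a non-overlapping difference of 0.12 ± 0.0448 (SE), adjusted p = 0.0306, which was lost without replicate 2 or 4 of vehicle A549 at 6 h, or replicate 2, 3 or 4 of vehicle A549 at 24 h (adjusted p from 0.0585 to 0.0884).

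The 7 A549 genes lower at 24 h were so after quantile normalization alone. HK1, the constitutive hexokinase, read 12.02, 11.99, 12.16 and 12.06 at 6 h and 11.56, 11.50, 11.55 and 11.53 at 24 h. The groups were apart, with a difference of -0.52 ± 0.0682 (SE), adjusted p = 8.55e-07, and the values as deposited gave -0.12 (adjusted p = 0.0797). PFKL, the liver-type phosphofructokinase, read 9.96, 10.06, 10.05 and 9.91 at 6 h and 9.75, 9.78, 9.73 and 9.77 at 24 h, a difference of -0.24 ± 0.0742 (SE), adjusted p = 0.0112, against 0.02 as deposited. PGAM1, a phosphoglycerate mutase, read 13.94, 14.07, 14.00 and 14.01 at 6 h and 13.83, 13.80, 13.86 and 13.89 at 24 h, which differed by -0.16 ± 0.0488 (SE), adjusted p = 0.0113, and by 0.28 as deposited. For PFKL and PGAM1 the direction thus turned with the scaling. PFKFB4 read 8.12, 7.97, 8.31 and 8.47 at 6 h and 8.02, 7.86, 8.03 and 8.0 at 24 h, with overlapping groups and a difference of -0.24 ± 0.0872 (SE), adjusted p = 0.0282, against -0.11 as deposited. The call was lost without replicate 3 or 4 of vehicle A549 at 6 h, or replicate 2 of vehicle A549 at 24 h (adjusted p from 0.0886 to 0.165). SLC2A1 read 9.56, 9.67, 9.65 and 9.64 at 6 h and 9.52, 9.39, 9.51 and 9.38 at 24 h, a difference of -0.18 ± 0.0529 (SE), adjusted p = 0.00806, against 0.06 as deposited. PFKP (-0.15) and ENO1 (-0.15) complete the list, at 0.24 and 0.23 as deposited. In the RO4929097 arrays of A549, 18 members rose and 1 fell, sharing 10 of the 13 rises and 1 of the 7 falls with vehicle, again without a share of all genes. With the 6 h replicates 3 and 4 of that group alone, whose mean intensities of 589 and 583 lay within the range of 570 to 613 of the brighter arrays, 11 rose and 1 fell, and 13 and 1 as deposited.

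The difference between the lines in this time effect was tested directly. For 27 members the change was more positive in H460a and for 2 more negative (76.3%), where 31% of all genes differed (16.8% more positive and 14.2% more negative). With the values as deposited the numbers were 16 and 5, beside 2202 and 4821 of all genes, and after median centring 16 and 6, beside 1591 and 5182. Both after quantile normalization and as deposited, 16 higher and 2 lower were past the threshold. The 16 were SPAG4 (2.04), NDRG1 (1.71), P4HA2 (1.61), ALDOC (1.38), PFKFB4 (1.29), BNIP3L (1.28), ENO2 (1.28), P4HA1 (0.89), MXI1 (0.88), SLC2A3 (0.86), PFKL (0.83), PDK1 (0.81), HK1 (0.79), EGLN1 (0.68), ANKRD37 (0.52) and PPFIA4. The PPFIA4 means lay under the background level in A549 at both times (5.65 and 5.64) and in H460a at 6 h (6.40), so the size of its difference was not measured. For SLC2A3 the mean of its probe sets gave 0.57. As deposited EGLN1 was 0.31 and HK1 0.38. HIF1A (-0.28) and CA12 (-0.39) were the 2 with a more negative change in H460a, at -0.67 and -0.89 as deposited. In the RO4929097 arrays 25 members differed in the positive direction and 0 in the negative, 23 of them among the 27, also without a share of all genes. With A549 6 h replicates 3 and 4 alone the count was 20, or 18 as deposited. NDRG1 and P4HA2 are examples of genes that rose in H460a while A549 differed by -0.04 and -0.09, neither past the threshold. As deposited these were 0.30, past it, and 0.18. The other 11 of the 27 were past the threshold after quantile normalization only: BHLHE40 (0.62), GPI (0.50), KDM3A (0.50), EPAS1 (0.38), PFKP (0.38), BNIP3 (0.31), TPI1 (0.28), PGK1 (0.24), PKM (0.20), PGAM1 (0.18) and ENO1 (0.17). As deposited 4 of these kept a positive sign without passing, BHLHE40 (0.27), KDM3A (0.22), GPI (0.10) and PFKP (0.01). The other 7 turned direction: EPAS1 was -0.06, TPI1 -0.12, PGK1 -0.18, ENO1 -0.19, PKM -0.10 and BNIP3 -0.02, none past the threshold, and PGAM1 -0.22, past it in the opposite direction. With the mean of all probe sets, PKM turned to -0.07, and CA12, KDM3A and ANKRD37 lost the call. CA12 was -0.23 without replicate 3 of vehicle H460a at 6 h, and it lost the call without replicate 1 or 3 of vehicle A549 at 6 h, or replicate 1 of vehicle A549 at 24 h, or replicate 3 of vehicle H460a at 6 h, or replicate 3 or 4 of vehicle H460a at 24 h (adjusted p from 0.0518 to 0.0743). The PGAM1 call was lost without replicate 2, 3 or 4 of vehicle A549 at 6 h, or replicate 1, 2 or 3 of vehicle A549 at 24 h, or replicate 1, 2 or 4 of vehicle H460a at 6 h, or replicate 1 or 2 of vehicle H460a at 24 h (adjusted p from 0.0573 to 0.088). PKM lost its call without replicate 1 or 3 of vehicle A549 at 6 h, or replicate 1 of vehicle A549 at 24 h, or replicate 3 of vehicle H460a at 6 h, or replicate 2 or 4 of vehicle H460a at 24 h (adjusted p from 0.0536 to 0.0689). For ENO1 it was lost without replicate 1 of vehicle A549 at 24 h, or replicate 2 or 4 of vehicle H460a at 6 h (adjusted p from 0.0515 to 0.0555).

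The lines also differed at a given time. At 24 h in vehicle 11 members were higher in A549 and 20 in H460a (81.6%), where 48.4% of all genes differed (25.5% higher in A549 and 22.8% lower), and as deposited the numbers were 10 and 19, beside 4981 and 4299 of all genes. At 6 h 22 were higher in A549 and 10 in H460a (84.2%, against 55.7% of all genes, 32.8% higher in A549 and 22.9% lower), but 13 and 16 as deposited, 12 and 18 after centring, and 20 and 15 with each line normalized alone. For all genes these were 5635 and 5664, 4503 and 6108, and 6401 and 4942, in that order. The 24 h and 6 h comparisons use the vehicle arrays that the time comparisons also use, so the 4 results are not independent. At 24 h A549 carried more transcript for both HIF alpha subunits, PFKFB3, CA12 and ADM, whereas H460a carried more for HK2, PPFIA4, PDK1, ALDOC, PFKFB4, SPAG4 and BNIP3.

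**Figure D3:**
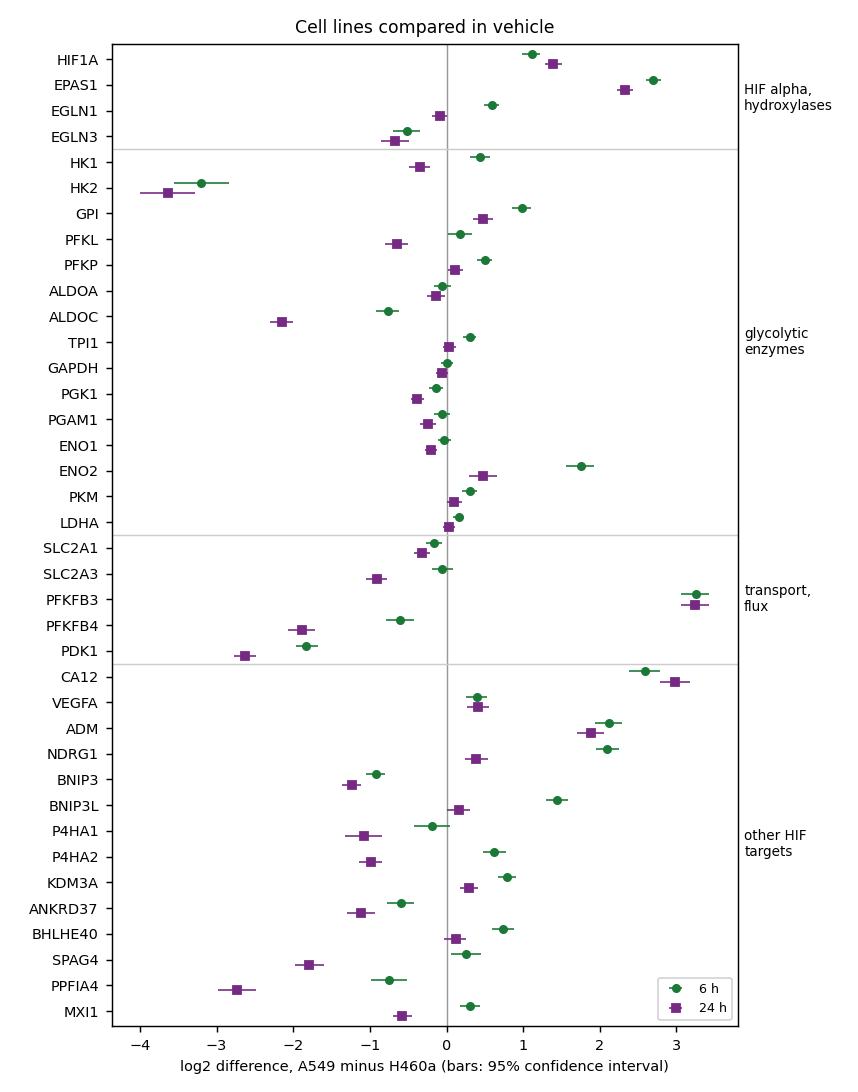
Log2 difference between A549 and H460a in vehicle for each member, by role, at 6 h (circles) and 24 h (squares), with 95% confidence intervals. Points right of 0 are higher in A549, such as PFKFB3 at 3.25 and 3.24, and points left of 0 are higher in H460a, such as HK2 at -3.20 and -3.64, both lower limits. SPAG4 moves from 0.25 at 6 h to -1.79 at 24 h.

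EPAS1 separated the lines at both times. Its A549 arrays lay at 12.90, 12.92, 13.00 and 12.99 at 24 h, all above 10.67, the highest H460a array, and the difference was 2.33 ± 0.0495 (SE), adjusted p = 3.01e-27, at 24 h and 2.70 at 6 h. HIF1A was also higher in A549 and apart at both times, by 1.39 ± 0.0548 (SE), adjusted p = 3.66e-20, at 24 h and 1.11 at 6 h, the latter 0.66 as deposited. EGLN3 was higher in H460a, and A549 read 7.85, 7.85, 7.98 and 8.27 at 6 h and 8.08, 8.25, 8.19 and 8.22 at 24 h. The difference was -0.67 ± 0.088 (SE), adjusted p = 1.01e-07, at 24 h and -0.52 at 6 h. EGLN1 was higher in A549 at 6 h, where A549 read 12.17, 12.10, 12.08 and 12.24, by 0.59 ± 0.0489 (SE), adjusted p = 5.37e-12, though 0.15 as deposited. At 24 h it differed by -0.09 (adjusted p = 0.125).

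Of the enzymes, HK2 differed most between the lines. A549 read 6.63, 6.64, 6.30 and 6.56 at 6 h and 6.63, 6.95, 7.04 and 6.99 at 24 h, under the background level of 7.45, so the difference of -3.64 ± 0.177 (SE), adjusted p = 8.2e-18, at 24 h is a lower limit. ALDOC was lower in A549, with a difference of -2.15 ± 0.0738 (SE), adjusted p = 9.27e-22, at 24 h and -0.77 at 6 h, with arrays apart at both times. PFKL was lower in A549 at 24 h, with a difference of -0.65 ± 0.0742 (SE), adjusted p = 5.65e-09. GPI, the isomerase after hexokinase, stood on the A549 side: A549 read 14.04, 14.05, 14.07 and 14.04 at 6 h and 14.11, 14.11, 14.15 and 14.14 at 24 h, and H460a 13.16, 13.07, 13.05 and 12.99 at 6 h and 13.64, 13.68, 13.78 and 13.51 at 24 h. The difference was 0.98 ± 0.0593 (SE), adjusted p = 2.33e-15, at 6 h and 0.48 at 24 h. ENO2 was also higher in A549, where it read 10.58, 10.55, 10.75 and 10.54 at 6 h and 10.70, 10.77, 10.69 and 10.82 at 24 h. Its difference shrank from 1.75 at 6 h to 0.47 at 24 h, over the time in which the H460a level rose. PFKP, the platelet-type phosphofructokinase, read 12.65, 12.71, 12.67 and 12.62 at 6 h and 12.50, 12.48, 12.53 and 12.53 at 24 h in A549 and 12.14, 12.12, 12.28 and 12.11 at 6 h and 12.35, 12.40, 12.45 and 12.38 at 24 h in H460a. It differed by 0.50 at 6 h, 0.05 as deposited, and by 0.11 at 24 h, which missed the threshold as deposited (0.03) and without replicate 3 or 4 of vehicle A549 at 24 h, or replicate 1, 2 or 4 of vehicle H460a at 24 h (adjusted p from 0.0557 to 0.103). Normalizing each line alone gave -0.11. PGK1 was lower in A549, with differences of -0.14 at 6 h and -0.38 at 24 h, and its H460a arrays read 14.31, 14.33, 14.42 and 14.29 at 6 h and 14.75, 14.73, 14.62 and 14.71 at 24 h.

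PFKFB3 was higher in A549 and PFKFB4 in H460a. PFKFB3, the isoform with the strongest bias to making the activator of glycolysis, read 11.65, 11.22, 11.40 and 11.49 at 6 h and 11.38, 11.38, 11.33 and 11.34 at 24 h in A549. In H460a it read 8.19, 8.16, 8.33 and 8.10 at 6 h and 8.09, 7.99, 8.31 and 8.06 at 24 h, and the lines differed by 3.24 ± 0.0903 (SE), adjusted p = 3.66e-24, at 24 h, a 9.48-fold difference. PFKFB4 was instead lower in A549, with a difference of -1.89 ± 0.0872 (SE), adjusted p = 2.08e-18, at 24 h and -0.61 at 6 h. PDK1 was lower in A549, with a difference of -2.63 ± 0.0704 (SE), adjusted p = 1.25e-24, at 24 h and -1.83 at 6 h. SLC2A3 differed by -0.06 at 6 h (adjusted p = 0.51) and was lower in A549 at 24 h, with a difference of -0.91 ± 0.0676 (SE), adjusted p = 3.44e-13. Its 2 other probe sets gave -0.77 and -0.69 at 6 h and -1.19 and -1.11 at 24 h. SLC2A1 was lower in A549, with differences of -0.17 at 6 h and -0.32 at 24 h, and its H460a arrays read 9.82, 9.73, 9.89 and 9.75 at 6 h and 9.75, 9.80, 9.79 and 9.74 at 24 h.

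The other HIF targets held both directions. CA12 in A549 read 13.86, 13.98, 13.89 and 13.90 at 6 h and 14.03, 13.95, 13.90 and 13.93 at 24 h, every array above those of H460a, and the difference was 2.98 ± 0.0995 (SE), adjusted p = 4.51e-22, at 24 h and 2.59 at 6 h. ADM in A549 read 11.00, 11.15, 11.28 and 11.26 at 6 h and 11.37, 11.30, 11.39 and 11.31 at 24 h. In H460a it read 9.05, 8.93, 9.20 and 9.04 at 6 h and 9.41, 9.46, 9.65 and 9.33 at 24 h, and A549 was higher by 1.88 ± 0.0864 (SE), adjusted p = 1.95e-18, at 24 h and by 2.12 at 6 h. NDRG1 in A549 read 11.30, 11.51, 11.62 and 11.53 at 6 h and 11.42, 11.49, 11.43 and 11.44 at 24 h. The H460a arrays read 9.22, 9.28, 9.50 and 9.54 at 6 h and 10.98, 11.07, 11.16 and 11.01 at 24 h, so that the line difference of 2.10 at 6 h came down to 0.39 at 24 h. VEGFA in A549 read 10.63, 10.68, 10.63 and 10.52 at 24 h and in H460a 10.31, 10.26, 10.11 and 10.14, apart by 0.41 ± 0.067 (SE), adjusted p = 4.42e-06, but its probe sets did not all share that sign.

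On the H460a side, BNIP3 read 12.90, 12.80, 12.99 and 12.75 at 6 h and 13.79, 13.85, 13.71 and 13.68 at 24 h. A549 minus H460a was -0.92 at 6 h and -1.23 ± 0.0608 (SE), adjusted p = 1.23e-17, at 24 h. PPFIA4 in A549 read 5.57, 5.66, 5.58 and 5.77 at 6 h and 5.52, 5.92, 5.68 and 5.43 at 24 h, under the background level, so its difference of -2.74 ± 0.12 (SE), adjusted p = 5.65e-19, at 24 h is a lower limit. SPAG4 in A549 read 8.52, 8.66, 8.63 and 8.59 at 6 h and 8.69, 8.76, 8.71 and 8.74 at 24 h. It differed by 0.25 at 6 h (adjusted p = 0.0215), 0.14 as deposited, and by -1.79 ± 0.0939 (SE), adjusted p = 6.32e-17, at 24 h. ANKRD37, a HIF target, read 7.76, 7.74, 7.89 and 8.06 in A549 at 6 h and 8.42, 8.38, 8.74 and 8.29 in H460a, a difference of -0.60 ± 0.0883 (SE), adjusted p = 7.21e-07. At 24 h it differed by -1.12, and P4HA1, P4HA2 and MXI1 by -1.08, -0.99 and -0.58. The remaining genes past the threshold at 24 h were KDM3A (0.29), HK1 (-0.35), PGAM1 (-0.24), ENO1 (-0.20) and ALDOA (-0.14), the last lost as deposited and without replicate 1, 2, 3 or 4 of vehicle A549 at 24 h, or replicate 1, 2 or 3 of vehicle H460a at 24 h (adjusted p from 0.0528 to 0.254). At 6 h they were BNIP3L (1.44), KDM3A (0.79), BHLHE40 (0.74), P4HA2 (0.62), HK1 (0.43), VEGFA (0.40), TPI1 (0.31), MXI1 (0.30), PKM (0.30), PFKL (0.17) and LDHA (0.16), besides HK2, whose -3.20 is a lower limit as at 24 h, and PPFIA4, whose 6 h means of 5.65 and 6.40 both lay under the background level, so that no size is given. Of these, 7 passed after quantile normalization but not as deposited, as was the case for PFKP and SPAG4. As deposited HK1 was 0.01, VEGFA 0.11 and MXI1 0.01, while 4 turned direction, TPI1 to -0.12, PKM to -0.01, PFKL to -0.11 and LDHA to -0.10. Another probe set had the opposite sign for PFKP, TPI1 and ANKRD37 at 6 h and for PFKP, VEGFA, P4HA1 and ANKRD37 at 24 h, and with the mean of all probe sets PFKL and SLC2A1 lost the call at 6 h and VEGFA at 24 h. Except for VEGFA these opposite probe sets lay under the background level, at 6.92 for PFKP, 7.02 for TPI1, 5.43 for ANKRD37 and 3.79 for P4HA1. PFKL at 6 h was also lost without replicate 1, 2 or 3 of vehicle A549 at 6 h, or replicate 3 or 4 of vehicle H460a at 6 h (adjusted p from 0.0543 to 0.165), and SPAG4 without replicate 2 of vehicle A549 at 6 h, or replicate 2 of vehicle H460a at 6 h (adjusted p from 0.0529 to 0.194).

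RO4929097 changed few of these genes by limma: 3 in A549 at 6 h, 5 in A549 at 24 h and 0 in H460a at either time. HES1, a direct Notch target, served as a check of the inhibitor and fell by 1.84 at 6 h and by 2.18 at 24 h in A549. In H460a the HES1 group means lay between 6.15 and 6.71, under the background level, so it is no check there. The Notch targets HEY1 and HES4 were above that level in H460a. HEY1 differed by -0.27 at 6 h (adjusted p = 0.243) and -0.28 at 24 h (adjusted p = 0.264), and HES4 by 0.09 (adjusted p = 0.8) and -0.17 (adjusted p = 0.85). At 24 h in A549, 2 members rose and 3 fell with the inhibitor (13.2%), where 3.08% of all genes lay past the threshold (1.68% higher and 1.4% lower), and the members' median was 0.029. None of these 5 differences reached 0.58. By role, 1 of 15 enzymes, 1 of 5 transporters and flux regulators, 2 of 14 other HIF targets and 1 of 4 HIF subunits and hydroxylases passed.

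EPAS1 had the largest of these 24 h changes. It read 12.90, 12.92, 13.00 and 12.99 in vehicle and 12.40, 12.54, 12.49 and 12.50 in RO4929097. All inhibitor arrays were lower, with a difference of -0.47 ± 0.0495 (SE), adjusted p = 1.79e-07. Of its other probe sets, the brighter differed by -0.74 and the dimmer by -0.0, the latter at a mean level of 4.46, under the background level. SLC2A3 read 11.16, 11.05, 10.96 and 11.01 in vehicle and 10.65, 10.72, 10.69 and 10.66 in RO4929097, again apart, with a difference of -0.37 ± 0.0676 (SE), adjusted p = 0.000879. BHLHE40, a repressor in the clock and hypoxia responses, read 12.30, 12.26, 12.30 and 12.30 in vehicle and 12.00, 11.97, 11.88 and 11.90 in RO4929097. The inhibitor arrays lay below, with a difference of -0.35 ± 0.07 (SE), adjusted p = 0.00246, a call lost with the mean of its probe sets. ALDOC was higher: it read 8.87, 8.89, 8.77 and 8.9 in vehicle and 9.25, 9.23, 9.21 and 9.34 in RO4929097, a non-overlapping difference of 0.40 ± 0.0738 (SE), adjusted p = 0.000874. BNIP3 read 12.55, 12.43, 12.54 and 12.59 in vehicle and 12.77, 12.76, 12.82 and 12.75 in RO4929097, apart by 0.25 ± 0.0608 (SE), adjusted p = 0.0144, although the values as deposited gave 0.27 with adjusted p = 0.0729. The BNIP3 call was also lost without replicate 2 of vehicle A549 at 24 h, or replicate 3 of RO4929097 A549 at 24 h (adjusted p from 0.0556 to 0.0764). HIF1A read 14.25, 14.25, 14.23 and 14.29 in vehicle and 14.22, 14.12, 14.16 and 14.18 in RO4929097, and its difference of -0.09 ± 0.0548 (SE), adjusted p = 0.551, did not pass.

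At 6 h in A549, 0 members rose and 3 fell (7.89%), where 2.82% of all genes passed (1.34% higher and 1.48% lower), but as deposited and after median centring 16 members were higher and 0 lower. Of all genes, 2301 were higher and 299 lower as deposited, and 2279 higher and 238 lower after centring. BHLHE40 read 12.11, 12.04, 12.05 and 12.07 in vehicle and 11.61, 11.64, 11.78 and 11.53 in RO4929097. Those groups did not overlap, and the difference was -0.43 ± 0.07 (SE), adjusted p = 0.000733, or -0.17 as deposited (adjusted p = 0.167). EPAS1 read 12.87, 12.80, 12.74 and 12.80 in vehicle and 12.59, 12.58, 12.57 and 12.57 in RO4929097, with a difference of -0.23 ± 0.0495 (SE), adjusted p = 0.013, but 0.02 as deposited. PFKL read 9.96, 10.06, 10.05 and 9.91 in vehicle and 9.84, 9.89, 9.57 and 9.58 in RO4929097, with a difference of -0.28 ± 0.0742 (SE), adjusted p = 0.0392, and -0.13 as deposited, and the call was also lost with the mean of its probe sets. EPAS1 lost the call without replicate 3 of RO4929097 A549 at 6 h (adjusted p = 0.0516), and PFKL without replicate 2 or 3 of vehicle A549 at 6 h, or replicate 3 or 4 of RO4929097 A549 at 6 h (adjusted p from 0.0841 to 0.222). The count of 3 became 5 without replicate 1 of vehicle or without replicate 1 or 2 of RO4929097, and 1 without replicate 3 of RO4929097. None of the 3 was past the threshold as deposited, and the part that the uneven mean intensity of these arrays has in them was not tested. HIF1A read 14.16, 14.03, 14.08 and 14.15 in vehicle and 14.13, 14.08, 14.19 and 14.19 in RO4929097, with overlapping groups and a difference of 0.04 ± 0.0548 (SE), adjusted p = 0.721.

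**Figure D4:**
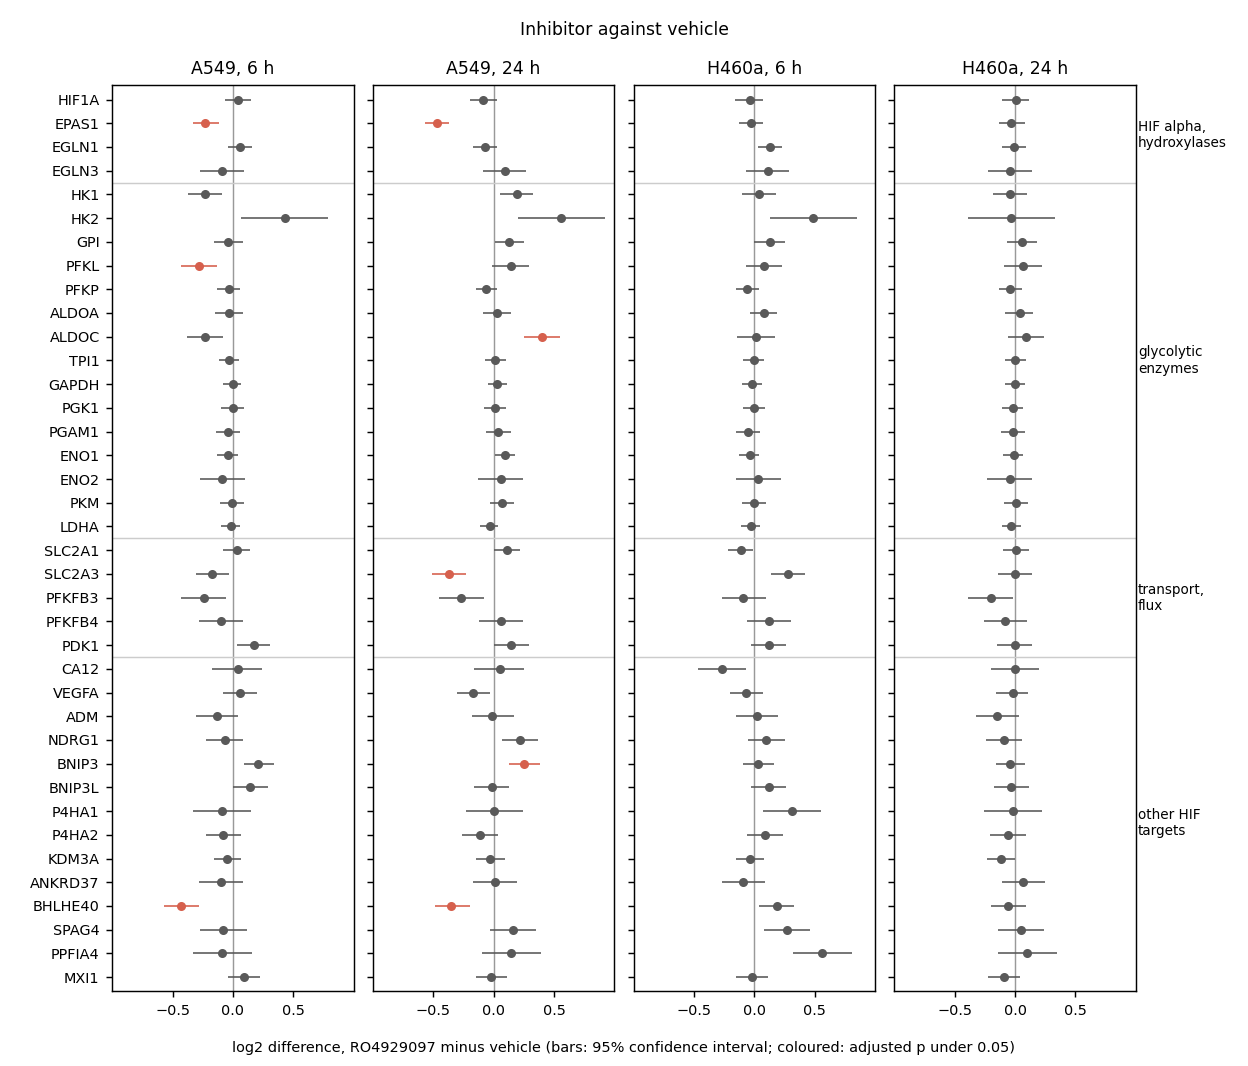
Log2 difference of each member between RO4929097 and vehicle, by role, in A549 and H460a at 6 and 24 h, with 95% confidence intervals, coloured where the adjusted p is under 0.05. The coloured points are 3 in A549 at 6 h and 5 in A549 at 24 h, where EPAS1 at -0.47 lies lowest, and H460a has none.

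In H460a 0 members passed at either time in limma, where 0.101% of all genes did so at 6 h (0.0759% higher and 0.0253% lower) and 0.0101% at 24 h (all of them higher, 0% lower). An unadjusted p under 0.05 was found for 10 of the 38 members at 6 h and 1 at 24 h, beside 1960 and 1296 of all 19775 genes. The nearest was PPFIA4 at 6 h, which read 6.56, 6.30, 6.21 and 6.52 in vehicle and 7.0, 6.65, 7.05 and 7.13 in RO4929097. These arrays did not overlap (adjusted p = 0.0511), but both group means lay under the background level, so no size is given. SLC2A3 differed by 0.28 ± 0.0676 (SE), adjusted p = 0.11, at 6 h, and as deposited it was past the threshold at 0.32 (adjusted p = 0.0383). For EPAS1 the 24 h difference in H460a was -0.03, with a 95% interval from -0.13 to 0.08, and for HIF1A it was 0.01, from -0.11 to 0.12.

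The inhibitor's effect was then compared between the lines. At 24 h it differed for EPAS1 alone of the 38 (2.63%, against 0.834% of all genes, 0.405% more positive in A549 and 0.43% more negative), by -0.44 ± 0.07 (SE), adjusted p = 0.0005, A549 minus H460a. At 6 h it differed for BHLHE40, by -0.61 ± 0.0989 (SE), adjusted p = 0.00228, and SLC2A3, by -0.45 ± 0.0956 (SE), adjusted p = 0.036, which is 5.26% of the members against 0.202% of all genes (0.086% more positive in A549 and 0.116% more negative). In H460a these genes differed by 0.19 and 0.28 at 6 h, and in A549 by -0.43 and -0.17. The 2 other SLC2A3 probe sets gave 0.06 and 0.11 in A549 and 0.09 and 0.24 in H460a, and with the mean of its probe sets the difference between the lines was -0.20 (adjusted p = 0.207). As deposited 0 members differed at 6 h, with BHLHE40 at -0.40 and SLC2A3 at -0.34, and without replicate 3 of vehicle H460a the SLC2A3 value was -0.37 (adjusted p = 0.0601). The call was lost without replicate 1, 2 or 3 of vehicle A549 at 6 h, or replicate 3 or 4 of RO4929097 A549 at 6 h, or replicate 3 of vehicle H460a at 6 h, or replicate 1, 3 or 4 of RO4929097 H460a at 6 h (adjusted p from 0.053 to 0.111). For ALDOC at 24 h, called in A549 and not in H460a, the difference between lines was 0.31 (adjusted p = 0.231).

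Genes of the same pathways outside the 38 were counted from 4 further lists, also chosen with earlier results of these data known. Over time in vehicle H460a, 27 of 35 further hypoxia response genes rose and 2 fell, with TMEM45A at 1.69, the cyclin gene CCNG2 at 1.56, the hormone gene STC1 at 1.5 and the lipoprotein receptor VLDLR at 1.46. Of 13 gluconeogenesis and glycogen genes 10 rose and 0 fell, among them the glycogen-targeting subunits PPP1R3B (0.86) and PPP1R3C (0.72), the branching enzyme GBE1 (0.72) and the phosphorylase PYGL (0.64). Other glycolytic isoforms and carriers were mixed, with 3 of 20 higher and 6 lower: PDK3 rose by 0.99, and SLC2A6, TIGAR and SLC2A8 differed by -0.73, -0.69 and -0.46. Of 15 other HIF regulators 4 rose and 3 fell, led by CITED2, an inhibitor of HIF that is also its target, at 1.53. The medians of these lists were 0.77, 0.403, 0.075 and 0.044, beside 0.010 for all genes, of which 16.4% rose and 15.7% fell. In A549 over the same time 9 of 35 further hypoxia genes rose and 4 fell (median 0.068, beside -0.049 for all genes, of which 16.6% rose and 22.1% fell), and CITED2 rose by 1.18. As deposited the hypoxia genes gave 23 rises and 0 falls, with a median of 0.294, where 29.2% of all genes rose and 15% fell. Between the lines at 24 h the counts in A549 were 6 higher and 22 lower of 35 for further hypoxia genes, 4 higher and 8 lower of 13 for gluconeogenesis and glycogen, 7 higher and 7 lower of 20 for the isoforms and carriers and 7 higher and 2 lower of 15 for the regulators, beside 25.5% higher and 22.8% lower of all genes. PPP1R3C differed most in the glycogen list, by -4.13, and LOXL2, a collagen cross-linking enzyme, was 2.50 higher in A549.

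With RO4929097 in A549 at 24 h, 5 of the 13 gluconeogenesis and glycogen genes rose and 1 fell, beside 1.68% higher and 1.4% lower of all genes. Those that rose were PPP1R3C (0.43), pyruvate carboxylase PC (0.38), PCK2 (0.32), GBE1 (0.24) and the glycogen synthase GYS1 (0.23), and PYGL fell by 0.21. As deposited 4 rose and 0 fell, beside 262 higher and 175 lower of all 19775 genes. For PPP1R3C the effect differed between the lines, by 0.54 (adjusted p = 5.64e-05). ANGPTL4, a secreted lipase inhibitor among the hypoxia genes, fell by 0.75 at 6 h and by 0.54 at 24 h, while ANG and FAM162A rose by 0.38 and 0.30 at 24 h. The counts in these lists at 24 h were 2 higher and 1 lower of 35 for further hypoxia genes, and 0 of 20 and 0 of 15 for the other glycolytic isoforms and the other HIF regulators. At 6 h CITED2 was higher by 0.47, the only 1 of 15 regulators to pass, as ANGPTL4 was of the 35 further hypoxia genes. In the other lists 0 of 20 and 0 of 13 passed, beside 1.34% higher and 1.48% lower of all genes. The values of CITED2 and ANGPTL4 as deposited are not given, although calls at 6 h in A549 depended on the scaling. In H460a the hypoxia gene CCNG2 was past the threshold at 6 h, at 0.47 (adjusted p = 0.00214), and no gene of the 4 lists was at 24 h.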

How the data were processed

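Total RNA (15 µg) of the 32 samples was labelled as biotin cRNA and hybridised to Affymetrix arrays, per the labels' protocols. The authors deposited 1 table of intensity values for 54675 probe sets, made with RMA (background correction, quantile normalization and probe summary), per the submitters' processing notes. Which software ran it is not given in the sources used here. Their range shows linear intensities, so log2 was taken. A text in the sample descriptions that does not describe cell lines was not used.

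The 62 control probe sets were dropped. Of the rest, 41091 had 1 gene symbol in the platform annotation, 1801 several and 11721 none, and those with several or none named no gene. Probe sets shared by SLC2A3 and SLC2A14 were thus left out. Each of 19775 genes was read by its brightest probe set, and genes past the threshold with a probe set of opposite sign are named in the text for the comparisons of 2 groups. Means of all probe sets include those under the background level. The deposited arrays differed in distribution, so they were quantile normalized again (limma 3.58.1, R 4.3.3), which sets equal distributions and so hides a shift common to all genes. lmFit fitted the 8 group means and eBayes the moderated test, with Benjamini-Hochberg adjustment over all genes within each of 11 comparisons and 0.05 as threshold. Tables and plots used Python 3.11.15, pandas 2.3.3 and matplotlib 3.10.9. The procedure was tested on simulated data.

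In each comparison of 2 groups, up to 3 members per role and direction with the largest difference past the threshold are given with every array, others past it by their difference. A level of 7.45, the 75th percentile of the mean levels of 27 genes of leukocytes, endothelium, fibroblasts, muscle and neurons, served as background. Some of these genes read well above it, such as NEFL in H460a (11.87 to 12.35) and SNAP25 in A549 (9.46 to 10.61). Array number limits the precision, with a median standard error of 0.083 between groups. Alternatives were the deposited and centred values, normalization within each line, fits to fewer arrays, probe set means, filters, array weights, a replicate block and omission of single arrays. The members, gene lists and alternatives were chosen with earlier results of these data known.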

Additional observations from a re-analysis of the deposited data

Results flagged for a closer look

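Single arrays stood apart from the other 3 of their group in 20 of the 304 combinations of a member and a group, where chance gives about 1 in 20. The measure was the gap to the nearest array over the group's range, set against Dixon's 95% critical value. In vehicle H460a at 6 h the arrays were replicate 3 for PFKP (highest, 12.28), PGAM1 (highest, 14.19), SLC2A3 (lowest, 10.40), CA12 (highest, 11.82) and P4HA1 (lowest, 10.67). In vehicle H460a at 24 h the arrays were replicate 3 for EGLN3 (highest, 9.09) and PFKFB4 (highest, 9.96), and replicate 4 for TPI1 (lowest, 14.07). In RO4929097 H460a at 6 h the arrays were replicate 1 for PFKL (highest, 9.97), and replicate 2 for SLC2A1 (lowest, 9.62) and NDRG1 (lowest, 9.34), and replicate 4 for PKM (lowest, 14.23). In RO4929097 A549 at 24 h the arrays were replicate 3 for ALDOA (highest, 14.61), and replicate 4 for PGAM1 (highest, 13.91) and PKM (highest, 14.62). In RO4929097 H460a at 24 h the arrays were replicate 4 for ALDOA (lowest, 14.58). In vehicle A549 at 24 h the arrays were replicate 2 for GAPDH (lowest, 15.20) and BHLHE40 (lowest, 12.26). In RO4929097 A549 at 6 h the arrays were replicate 2 for SLC2A3 (lowest, 10.37) and PDK1 (lowest, 8.47). Of the 20, 5 were in replicate 3 of vehicle H460a at 6 h, the array with the wide actin 3′ to 5′ difference, whose part in these values was not tested.

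The RO4929097 effect differed between the lines (A549 minus H460a) for BHLHE40 (-0.61, at 6 h), SLC2A3 (-0.45, at 6 h) and EPAS1 (-0.44, at 24 h). The change from 6 to 24 h in vehicle was more positive in H460a for 27 members, namely SPAG4 (2.04), PPFIA4 (1.99), NDRG1 (1.71), P4HA2 (1.61), ALDOC (1.38), PFKFB4 (1.29), BNIP3L (1.28), ENO2 (1.28), P4HA1 (0.89), MXI1 (0.88), SLC2A3 (0.86), PFKL (0.83), PDK1 (0.81), HK1 (0.79), EGLN1 (0.68), BHLHE40 (0.62), ANKRD37 (0.52), KDM3A (0.50), GPI (0.50), EPAS1 (0.38), PFKP (0.38), BNIP3 (0.31), TPI1 (0.28), PGK1 (0.24), PKM (0.20), PGAM1 (0.18) and ENO1 (0.17). The PPFIA4 value is no measured size, since its means lay under the background level in A549 at both times and in H460a at 6 h. It was more negative in H460a for HIF1A (-0.28) and CA12 (-0.39). As deposited, 16 of the 27 and both of the 2 were past the threshold in the same direction.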

How the results depend on the processing

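Scaling and the number of arrays set the limits of these results. Of 154 differences of members past the threshold, 117 kept direction and side with the values as deposited, 20 were no longer past it and 17 turned direction, and 150 kept both with each line normalized alone. Apart from PKM for time in H460a and PFKP for the lines at 24 h, the directions that turned lie in comparisons with A549 at 6 h, and the cause was not tested. A replicate block kept 152 of the 154, with SLC2A3 (inhibitor between the lines at 6 h) and PGAM1 (time between the lines) lost. The replicate numbers do not pair the arrays: 4 of 32 pairs of arrays of 1 number had deviations that correlated over 0.1 (range -0.252 to 0.211), and when each array was set against the 4 arrays of the other group, over 64 such cases in the 8 comparisons of 2 groups, it lay closest to its own number in 14. The replicate block gave 1 member in place of 2 for the inhibitor between the lines at 6 h and moved no other count of members by over 1.5 times. Comparisons with RO4929097 arrays in place of vehicle arrays were chosen after seeing the data.

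The number of members past the threshold moved as follows. For the inhibitor in A549 at 6 h, 13.1% of all genes passed as deposited and 12.7% after centring, against 2.82% after quantile normalization. For time in A549 these shares were 44.2%, 42.0% and 38.7%. Elsewhere in this paragraph the share of all genes under each setting is not given, so the member counts stand without it. For the inhibitor in A549 at 6 h (3) it was 16 as deposited, 16 after centring, 1 with only the arrays compared, 6 without genes under the median level, 5 with eBayes trend and robust settings, 0 with a difference of at least 0.58 and 1 without the 3 arrays that stand apart. For A549 at 24 h (5) it was 8 with only the arrays compared, 9 with array weights and 0 at 0.58. For H460a at 6 h (0) it was 1 as deposited, with probe set means, with trend and robust, or with weights, and 2 after centring. For time in A549 (20) it was 31 as deposited, 32 after centring, 2 at 0.58, and 12 with the RO4929097 arrays and A549 6 h replicates 3 and 4 alone. For time in H460a (31) it was 20 at 0.58, for the lines 20 at 6 h (32) and 18 at 24 h (31). For the inhibitor between the lines at 6 h (2) it was 0 as deposited, after centring or with only the arrays compared, and 1 with probe set means, at 0.58 or without the 3 arrays. At 24 h (1) it was 0 after centring or at 0.58, 2 with only the arrays compared or without genes under the median, 3 with probe set means or trend and robust, and 4 with weights or without the 3 arrays. For time between the lines (29) it was 16 at 0.58 and 18 with the RO4929097 arrays, A549 6 h replicates 3 and 4 and deposited values. Leaving out single arrays gave 1 to 5 members for the inhibitor in A549 at 6 h, 4 to 5 at 24 h, 0 to 1 in H460a at 6 h and 0 to 0 at 24 h. It gave 17 to 20 for time in A549, 30 to 31 in H460a, 30 to 32 for the lines at 6 h and 29 to 32 at 24 h. It gave 1 to 2 for the inhibitor between the lines at 6 h, 1 to 1 at 24 h, and 25 to 29 for time between the lines.

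With the values as deposited the direction turned for the inhibitor in A549 at 6 h EPAS1 0.02, for time in A549 PFKL 0.02, PFKP 0.24, PGAM1 0.28, ENO1 0.23 and SLC2A1 0.06, for the lines at 6 h PFKL -0.11, TPI1 -0.12, PKM -0.01 and LDHA -0.10, and for time between the lines EPAS1 -0.06, TPI1 -0.12, PGK1 -0.18, PGAM1 -0.22, ENO1 -0.19, PKM -0.10 and BNIP3 -0.02. With each array centred on its median the direction turned for the inhibitor in A549 at 6 h EPAS1 0.04, for time in A549 PFKL 0.07, PFKP 0.29, PGAM1 0.33, ENO1 0.27 and SLC2A1 0.11, for the lines at 6 h HK1 -0.05, PFKL -0.16, PFKP -0.01, TPI1 -0.18, PKM -0.07, LDHA -0.15 and MXI1 -0.05, and for time between the lines EPAS1 -0.11, PFKP -0.04, TPI1 -0.17, PGK1 -0.23, PGAM1 -0.27, ENO1 -0.24, PKM -0.15 and BNIP3 -0.07. With the mean of all probe sets of a gene the direction turned for time in A549 EPAS1 -0.06 and VEGFA -0.09, for time in H460a PKM -0.11, for the lines at 24 h PFKP -0.06, and for time between the lines PKM -0.07. With each line normalized alone the direction turned for the lines at 24 h PFKP -0.11. With RO4929097 arrays in place of vehicle arrays the direction turned for time in A549 EPAS1 -0.09 and PFKL 0.18. With those arrays and A549 6 h replicates 3 and 4 alone the direction turned for time in A549 HIF1A -0.02, EPAS1 -0.09, HK1 0.04, PFKL 0.33 and ENO1 0.02. With these last arrays as deposited the direction turned for time in A549 HIF1A -0.04, EPAS1 -0.09, HK1 0.08, PFKL 0.36, ENO1 0.02 and PFKFB4 0.02.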
